A study of Mus musculus with 5 samples.

Results

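The genes described here mark continuous and lymphatic endothelium. These 36 genes, of 33589 rows in the deposited table, were picked by symbol from a list chosen with earlier results of these data known. They comprised 16 genes of continuous (capillarized) endothelium, 9 pan-endothelial genes and 11 lymphatic endothelial genes, and each had exactly 1 row. RNA was measured in 5 livers of male mice aged 6 weeks kept on a high-fat diet over 4 weeks, as were all groups. The 2 control livers had the genotype Hegfl/fl, a floxed Heg1 gene without Cre, and the 3 knockout livers had the genotype Lyve1-Cre;Hegfl/fl, in which Cre is driven by Lyve1, a gene of lymphatic and sinusoidal endothelial cells. The labels give neither litter nor batch, nor say that each library is a separate mouse, so the spread given below is that between libraries. Values are FPKM, read fragments scaled to transcript length and to the size of the library, so levels can be compared between genes.

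The sinusoids of the liver are lined by endothelial cells with open pores and little basement membrane, unlike the continuous endothelium of most other capillaries. Capillarization is the name for a shift of sinusoidal cells towards the continuous type, with CD34, von Willebrand factor and laminins among its usual markers. Lymphatic vessels run in the portal tracts and are specified by the transcription factor PROX1. Some of these genes are also used by other liver cells, Prox1 by hepatocytes and Reln by stellate cells, so that the bulk value of a gene is not that of endothelium alone. In bulk liver, fewer cells of a type and less RNA per cell cannot be told apart.

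Hepatocytes are named in the title of the series, but the tissue label reads liver. Hepatocyte markers dominated, with a summed level of 59840 to 76930 FPKM for 6 genes, but sinusoidal markers summed to 151.2 to 209.8 FPKM and Kupffer cell markers to 122.0 to 215.2 FPKM, so other cells were present. Heg1, the targeted gene, had 0.48 and 0.35 FPKM across the control pair, against 0.45, 0.43 and 0.50 FPKM across knockouts 1 to 3, so the genotypes overlapped. Knockout 1 stood apart by its red cell transcripts, with an erythrocyte marker sum of 1329 FPKM against 135.8 to 243.9 FPKM in the other 4 livers.

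No member passed the test for a difference between genotypes. The test was limma, a linear model on log2(FPKM + 1), fitted to the 10820 genes with a mean of at least 1 FPKM, with Benjamini-Hochberg adjustment over all of them and a threshold of 0.05. Of the 36 members 25 entered it, and 0 passed, with a smallest adjusted p of 0.675. Over all genes tested 0 passed as well (0.0%). At an unadjusted p below 0.05 there were 3 members, Cav1, Itga9 and Sox18, all with higher values in knockouts, where 5.29% of all genes tested were higher and 1.71% lower at that p. Every knockout lay above every control for 6 of the 25 members (24.0%) and below for 0, while groups did not overlap for 25.3% of all genes tested, 18.9% higher and 6.38% lower. The share of members with separate groups is thus near the background and is no result about endothelium. With 5 livers an exact permutation test of a single gene has 10 splits and cannot give a p below 0.1.

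The direction of small differences depended on how the libraries were scaled. Fold changes were above 0 for 20 of 25 members as deposited, beside 64.2% of all genes tested, and for 15 of 25 after median-of-ratios scaling or quantile normalization, beside 48.5% and 49.4% of all genes. The median log2 fold change of the 25 members was 0.083, beside 0.061 over all genes tested, and 0.024 and 0.017 after those scalings. Members higher at an unadjusted limma p below 0.05 numbered 2 and 1 after them, beside 273 and 279 of the 10820 genes.

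**Figure D1:**
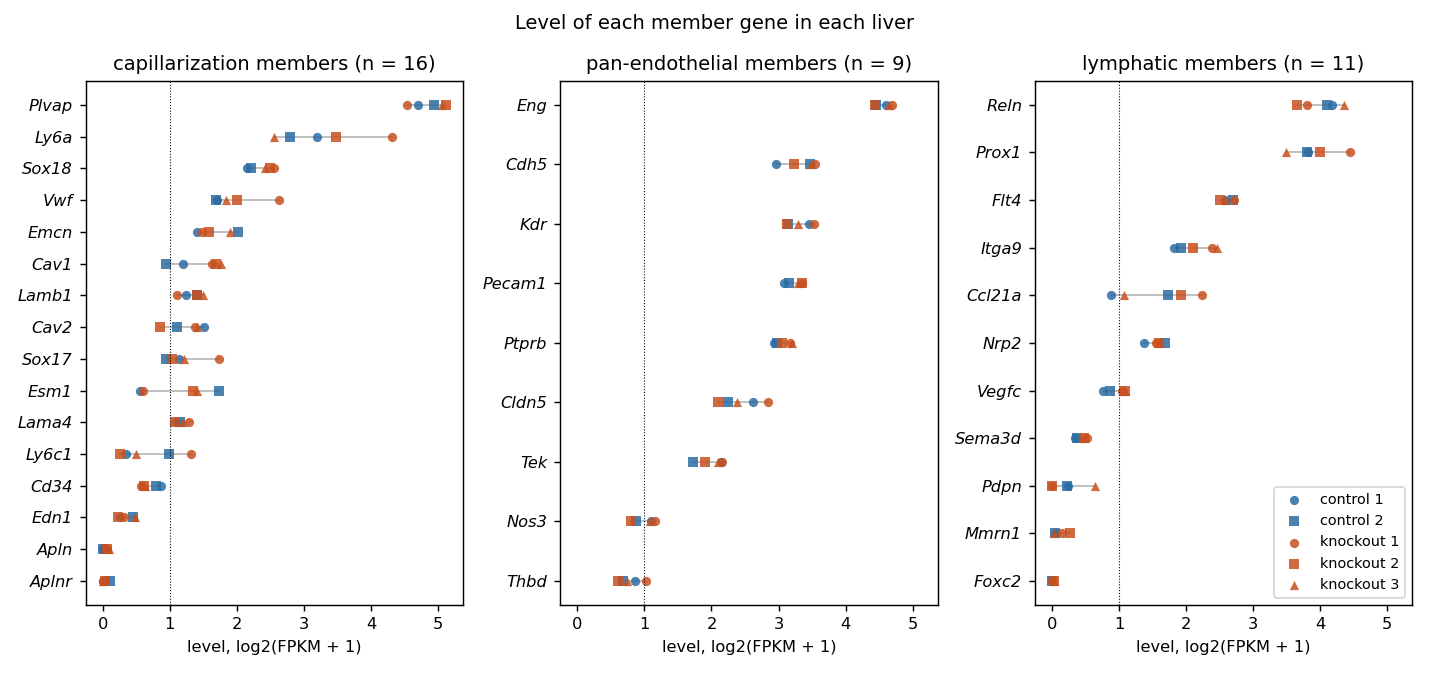
Level of the 36 member genes in each liver, as log2(FPKM + 1) on the horizontal axis, in panels by class; blue points are controls, orange points knockouts, the grey line spans the 5 livers and the dotted line marks 1 FPKM. Plvap, Eng, Reln and Prox1 have the highest levels, and the points of both genotypes lie within each other for most genes.

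Sequences upstream of 4 members are shown first, because Cav1 had the smallest p of the members, Cav2 is its neighbour and partner, Vegfc is a lymphatic ligand whose groups did not overlap, and Cd34 was the only member lower in every knockout. RefSeq promoters (build GRCm38.p6, the assembly also called mm10) were found for 23 of the 36 members. Each run is the 250 bases before the start that RefSeq lists, which for Vegfc is not within a GENCODE transcript, 5′ to 3′ on the strand of the gene, all on the plus strand. Capitals mark the letters of 3 motifs on either strand, CCACCC (bound by KLF factors, which the HEG1 and CCM proteins are known to hold down in endothelium), GGAAGT (bound by ETS factors) and AACAAT (bound by SOX factors), and no match of one motif overlaps a match of another in these runs.
Cav1 (chr6:17306085-17306334, the upstream start of the pair listed): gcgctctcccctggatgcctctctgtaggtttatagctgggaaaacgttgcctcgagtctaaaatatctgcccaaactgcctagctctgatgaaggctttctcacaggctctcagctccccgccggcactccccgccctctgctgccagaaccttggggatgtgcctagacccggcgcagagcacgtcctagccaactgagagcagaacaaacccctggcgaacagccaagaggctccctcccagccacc
Cav2 (chr6:17280935-17281184): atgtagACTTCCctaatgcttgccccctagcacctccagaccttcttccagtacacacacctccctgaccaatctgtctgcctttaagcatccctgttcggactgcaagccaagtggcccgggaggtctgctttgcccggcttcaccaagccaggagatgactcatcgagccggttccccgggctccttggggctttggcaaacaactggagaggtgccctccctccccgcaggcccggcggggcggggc
Vegfc (chr8:54077282-54077531): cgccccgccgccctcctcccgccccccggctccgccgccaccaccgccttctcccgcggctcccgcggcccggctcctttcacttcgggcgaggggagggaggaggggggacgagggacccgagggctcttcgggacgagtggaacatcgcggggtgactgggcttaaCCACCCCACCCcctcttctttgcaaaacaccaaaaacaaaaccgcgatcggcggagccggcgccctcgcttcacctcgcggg
Cd34 (chr1:194938571-194938820): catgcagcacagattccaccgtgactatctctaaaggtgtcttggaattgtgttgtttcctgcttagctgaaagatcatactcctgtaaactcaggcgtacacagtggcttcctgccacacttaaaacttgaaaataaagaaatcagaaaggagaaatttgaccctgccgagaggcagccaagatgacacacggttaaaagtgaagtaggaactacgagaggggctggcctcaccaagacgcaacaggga
The run before Vegfc holds CCACCC 2 times in an overlapping pair, and the run before Cav2 holds GGAAGT 1 time, on the minus strand. None of the motifs is in the windows of Cav1 and Cd34, which says nothing about the factors. Over all 32851 windows of the same length, 28.1% hold CCACCC, 19.7% GGAAGT and 9.42% AACAAT. Among the 26 windows of members the numbers were 7, 5 and 3.

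Junction and adhesion proteins of endothelium were at low to middle levels, and none passed the test. Pecam1, which joins endothelial cells at their borders (chromosome 11, 106654217 to 106750628, minus strand), had control levels of 7.46 and 7.87 FPKM with knockout levels of 9.23, 9.23 and 8.74 FPKM. Every knockout lay above both controls, by a small step, and the log2 fold change was 0.22 (SE 0.10, limma adjusted p = 0.718). Cdh5, which encodes VE-cadherin, had 6.77 and 10.03 FPKM without Cre, compared to 10.63, 8.37 and 10.17 FPKM with it. Control 1 alone was low, control 2 lay among the knockouts, and without control 1 the log2 fold change went from 0.21 to -0.047. Cldn5, the claudin of endothelial tight junctions, had 5.17 and 3.72 FPKM across the control pair, against 6.19, 3.28 and 4.23 FPKM across knockouts 1 to 3. The highest and the lowest liver were both knockouts, and the 95% interval of the log2 fold change ran from -0.57 to 0.59.

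Emcn and Cd34 encode sialomucins of the endothelial surface. Emcn had control levels of 1.65 and 3.06 FPKM with knockout levels of 1.80, 2.01 and 2.73 FPKM, so that the controls were the lowest and the highest of the 5 livers. Cd34 (chromosome 1, 194938819 to 194961279, plus strand) had 0.83 and 0.73 FPKM without Cre, compared to 0.49, 0.53 and 0.55 FPKM with it. This capillarization marker was the only member that was lower in every knockout than in both controls, and it lay below 1 FPKM. In a fit that took in the 14401 genes with at least 0.1 FPKM its log2 fold change was -0.22 (SE 0.11, limma adjusted p = 0.777), on a scale that understates the change of such low genes.

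Caveolin 1, the main coat protein of caveolae, gave the largest fold change of the members tested. Cav1 (chromosome 6, 17306335 to 17341452, plus strand) had 1.30 and 0.93 FPKM across the control pair, against 2.08, 2.23 and 2.39 FPKM across knockouts 1 to 3. The gap between the groups was wider than the spread within either of them, with means of 1.12 ± 0.26 (SD, n = 2) and 2.23 ± 0.15 FPKM (SD, n = 3). The log2 fold change of 0.62 ± 0.15 (SE) had a 95% interval of 0.27 to 0.97, an unadjusted p of 0.0047 and a limma adjusted p of 0.675. Leaving out each liver in turn gave 0.49 to 0.74, and a pseudocount of 0.1 in place of 1 gave 0.96, since log2(FPKM + 1) understates the change of low genes. Over all alternatives its adjusted p lay between 0.458 and 0.914.

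For the partner of caveolin 1 the groups overlapped. Cav2 starts upstream of Cav1, with 17220 bases between both genes, and had control levels of 1.86 and 1.15 FPKM with knockout levels of 1.58, 0.81 and 1.66 FPKM. Knockout 2 was the lowest liver for Cav2 and had the second highest Cav1. The interval for Cav2, -0.65 to 0.45 on the log2 scale, overlaps that for Cav1, and the difference between both genes was not tested. Among 4 tested genes of the caveolar coat, 0 passed and the fold changes lay between -0.094 (Cavin1) and 0.16 (Cavin2, with 4.27 and 4.39 FPKM without Cre, compared to 4.75, 5.03 and 5.12 FPKM with it). Plvap, the protein of the diaphragms that close endothelial pores and caveolae, was the most abundant member. It had 25.03 and 29.69 FPKM across the control pair, against 22.29, 33.75 and 32.18 FPKM across knockouts 1 to 3. The lowest and the highest value both came from knockouts, and the log2 interval was -0.38 to 0.55.

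**Figure D2:**
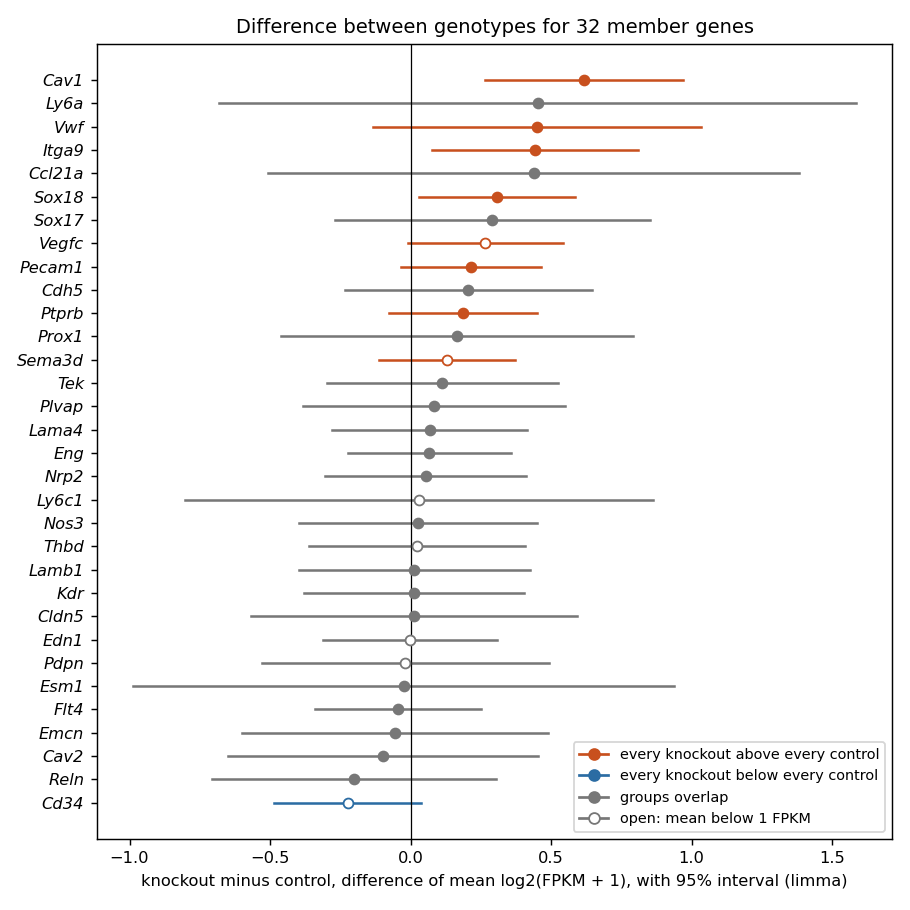
Difference between genotypes for the 32 members with a mean of at least 0.1 FPKM, as knockout minus control in mean log2(FPKM + 1) with its 95% interval from limma; filled points are the 25 members with at least 1 FPKM, open points come from the fit with the lower filter, and colour marks groups that do not overlap. The intervals of Cav1, Itga9 and Sox18 lie above 0, and none of the members passed the adjustment over all genes.

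Genes of haemostasis and vessel tone were low in these livers. Vwf, the platelet-binding glycoprotein stored in continuous endothelium (chromosome 6, 125546774 to 125686679, plus strand), had control levels of 2.27 and 2.23 FPKM with knockout levels of 5.17, 2.99 and 2.56 FPKM. Every knockout was above both controls, and knockout 1 was far above the rest. The log2 fold change was 0.45 (SE 0.24, limma adjusted p = 0.730), and 0.21 without knockout 1. Platelets and megakaryocytes also carry Vwf. Their 5 markers gave a sum of 1.51 and 3.12 FPKM for the controls, next to 2.76, 4.08 and 2.76 FPKM for the knockouts, with 1 marker, Gp9, at 0 in every liver, and their part in the Vwf values was not tested.

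Nos3, the endothelial nitric oxide synthase, had 1.15 and 0.83 FPKM without Cre, compared to 1.23, 0.75 and 1.12 FPKM with it. The groups overlapped fully. Of the exonic bases of Nos3, 32.3% are also covered by genes on the opposite strand, Atg9b and Gm15587. The share of each was not separated, and Atg9b had at most 0.18 FPKM. Thbd, the thrombin receptor thrombomodulin, had 0.82 and 0.60 FPKM across the control pair, against 1.04, 0.53 and 0.67 FPKM across knockouts 1 to 3. Edn1, the vasoconstrictor endothelin 1, had control levels of 0.19 and 0.36 FPKM with knockout levels of 0.25, 0.17 and 0.40 FPKM. For both genes the knockouts spanned the controls, with log2 fold changes of 0.023 and -0.0027.

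The vascular receptors were among the most even members. Eng, the co-receptor for BMP9 on endothelium, had 23.20 and 20.94 FPKM without Cre, compared to 24.92, 20.66 and 24.03 FPKM with it. Its highest liver was 1.21 times its lowest, and the 95% interval of its log2 fold change was -0.22 to 0.36. Kdr, the main VEGF receptor of blood vessels, had 9.95 and 7.85 FPKM across the control pair, against 10.49, 7.70 and 8.79 FPKM across knockouts 1 to 3. Kdr levels were thus as far apart within each genotype as between them. Flt4, the VEGFC receptor used by lymphatic and sinusoidal endothelium, had control levels of 5.01 and 5.53 FPKM with knockout levels of 5.55, 4.68 and 5.01 FPKM. It was the most even of the 25 tested members, with a highest to lowest ratio of 1.19 and an interval of -0.34 to 0.25.

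Ptprb and Tek form a pair, since the phosphatase VE-PTP encoded by Ptprb acts on the angiopoietin receptor TIE2 encoded by Tek. Ptprb (chromosome 10, 116275523 to 116389535, plus strand) had 6.65 and 6.88 FPKM without Cre, compared to 8.03, 7.32 and 8.18 FPKM with it. Every knockout was above both controls, and the log2 fold change was 0.19 (SE 0.11, limma adjusted p = 0.739). Tek had 3.43 and 2.30 FPKM across the control pair, against 3.44, 2.74 and 3.26 FPKM across knockouts 1 to 3, with control 1 among the knockouts. Nrp2, a co-receptor for VEGFC and secreted semaphorins, had control levels of 1.59 and 2.22 FPKM with knockout levels of 1.93, 2.04 and 2.02 FPKM, all 3 between the controls. Aplnr, the apelin receptor, was at 0 in 3 livers and at most 0.08 FPKM.

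Secreted ligands ranged from Reln, among the most abundant members, to Apln, close to 0. Vegfc, the growth factor of lymphatic vessels (chromosome 8, 54077606 to 54187096, plus strand), had 0.69 and 0.82 FPKM without Cre, compared to 1.07, 1.13 and 1.13 FPKM with it. Each genotype was tight and every knockout lay above both controls. The mean of 0.97 FPKM put Vegfc just under the main filter, as the first member below it, while Nos3, with a mean of 1.02 FPKM, was the last above it. In the fit with the lower filter the log2 fold change of Vegfc was 0.27 (SE 0.11, unadjusted p = 0.056, limma adjusted p = 0.773). Sema3d, a secreted semaphorin, had 0.27 and 0.30 FPKM across the control pair, against 0.44, 0.39 and 0.39 FPKM across knockouts 1 to 3, again without overlap (log2 fold change 0.13, limma adjusted p = 0.821). Of the 7 members fitted between 0.1 and 1 FPKM, 2 were higher and 1 lower without overlap, where this held for 24.0% of the 14401 genes of that fit, 17.8% higher and 6.23% lower. Those 14401 genes include the 10820 with at least 1 FPKM, so they are not matched to the 7 in level. Of the 7 none passed, and an unadjusted p below 0.05 was reached by 0 of them, beside 920 of the 14401 genes (6.39%, with 4.57% higher). In that fit 24 of the 32 members had fold changes above 0, beside 63.8% of its genes. Apln, which encodes apelin, was listed at 0 in both controls and at 0.04, 0.04 and 0.07 FPKM in knockouts.

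Esm1 varied more than any other member with at least 1 FPKM. This secreted proteoglycan of activated endothelium had control levels of 0.47 and 2.32 FPKM with knockout levels of 0.51, 1.55 and 1.66 FPKM. Control 1 and knockout 1 were low and the other 3 livers high, a ratio of 4.94 from lowest to highest that did not follow genotype. The log2 fold change of -0.025 had an interval of -0.99 to 0.94, and it was -0.61 without control 1 and 0.56 without control 2.

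Ccl21a, the chemokine with which lymphatic vessels attract dendritic cells and lymphocytes (chromosome 4, 42772860 to 42773993, minus strand), had 0.84 and 2.32 FPKM without Cre, compared to 3.70, 2.79 and 1.11 FPKM with it. Control 1 and knockout 3 were low. The log2 fold change of 0.44 (SE 0.39, limma adjusted p = 0.812) was 0.013 without control 1 and 0.86 without control 2. Near-identical copies share its reads, and 50.3% of the 100-base windows of its transcripts also occur in other genes. Of these, Ccl21b had 0.28 and 0.33 FPKM across the control pair, against 1.56, 0.63 and 0.46 FPKM across knockouts 1 to 3, so the values of both copies are uncertain. Ccl21b was chosen for this overlap, after its values were seen.

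Reln, an extracellular matrix glycoprotein of lymphatic endothelium that stellate cells also make, was the third most abundant member. It had control levels of 17.16 and 16.08 FPKM with knockout levels of 13.02, 11.56 and 19.39 FPKM. Knockouts 1 and 2 were below both controls and knockout 3 above them, and the log2 fold change was -0.20 (SE 0.21, limma adjusted p = 0.837), or -0.41 without knockout 3. The other 6 stellate cell markers gave a sum of 111.4 and 140.0 FPKM for the controls, next to 91.6, 140.2 and 139.0 FPKM for the knockouts, and none was at 0 in every liver. It was lowest in knockout 1, and their part in the Reln values was not tested.

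Of the transcription factors, Sox18 separated the genotypes most clearly. Sox18 acts in blood and lymphatic endothelium and induces Prox1 in the embryo. The gene (chromosome 2, 181669836 to 181671640, minus strand) had 3.42 and 3.63 FPKM without Cre, compared to 4.85, 4.60 and 4.37 FPKM with it. The gap of the groups exceeded the spread within them, with a fold change of 0.31 ± 0.12 (SE, log2 scale), a 95% interval from 0.031 to 0.59, an unadjusted p of 0.034 and a limma adjusted p of 0.700. After quantile normalization it was 0.20, with an unadjusted p of 0.128. Sox17, a relative that marks arterial endothelium, had 1.20 and 0.92 FPKM across the control pair, against 2.34, 1.05 and 1.32 FPKM across knockouts 1 to 3. Knockout 1 alone was high, and the log2 fold change of 0.29 was 0.086 without it. Of the exonic bases of Sox17, 16.8% lie on the opposite strand of another gene.

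Prox1, the factor that specifies lymphatic endothelium, was abundant, at control levels of 13.07 and 12.98 FPKM with knockout levels of 20.75, 14.97 and 10.21 FPKM. The knockouts spanned a ratio of 2.03, with the controls close to each other between them, and the log2 fold change was 0.17 (SE 0.26, limma adjusted p = 0.886), or -0.068 without knockout 1 and 0.41 without knockout 3. Hepatocytes express Prox1 as well. Prox1os, an antisense transcript that covers 1.59% of its exonic bases, had 9.94 to 14.16 FPKM and was lowest in knockout 1, where Prox1 was highest. Prox1os was chosen for this overlap, after its values were seen. Foxc2, a factor of lymphatic valves, was listed at 0 in 3 livers and at 0.02 FPKM in knockouts 2 and 3.

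Itga9, the integrin subunit of lymphatic valves, had the second smallest p of the members. The gene (chromosome 9, 118606690 to 118901003, plus strand) had 2.52 and 2.81 FPKM without Cre, compared to 4.24, 3.28 and 4.50 FPKM with it. All knockouts were above both controls, with a fold change of 0.44 ± 0.15 (SE, log2 scale), a 95% interval from 0.077 to 0.81, an unadjusted p of 0.025 and a limma adjusted p of 0.700. Leaving out each liver in turn gave 0.37 to 0.55. After quantile normalization the fold change was 0.35, with an unadjusted limma p of 0.052. Smooth muscle also uses this integrin. Its 5 markers gave a sum of 8.23 and 6.84 FPKM for the controls, next to 9.03, 9.56 and 6.35 FPKM for the knockouts, with none at 0 in every liver, and their part in the Itga9 values was not tested.

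The groups overlapped for both laminin chains of vascular basement membrane. Lamb1 had 1.37 and 1.64 FPKM across the control pair, against 1.15, 1.64 and 1.83 FPKM across knockouts 1 to 3, a log2 fold change of 0.013. Lama4, the laminin chain typical of endothelium, had control levels of 1.14 and 1.21 FPKM with knockout levels of 1.45, 1.11 and 1.29 FPKM, a log2 fold change of 0.068 with an interval of -0.28 to 0.41. Of 8 other basement membrane genes 6 were tested and 0 passed, with a median log2 fold change of 0.13. Col4a1, a collagen IV chain, had the smallest p of these, with 4.33 and 5.27 FPKM without Cre, compared to 5.24, 8.55 and 7.95 FPKM with it (log2 fold change 0.49, unadjusted p = 0.053, limma adjusted p = 0.707). Its partner chain Col4a2 had 3.60 and 4.38 FPKM across the control pair, against 3.82, 4.81 and 5.08 FPKM across knockouts 1 to 3, a log2 fold change of 0.16. Mmrn1, a matrix protein stored by lymphatic endothelium and platelets, had control levels of 0.04 and 0.03 FPKM with knockout levels of 0.11, 0.20 and 0.02 FPKM, too low for a comparison.

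Ly6a and Ly6c1 are small surface antigens shared by continuous endothelium and blood cells. Ly6a, also known as Sca-1, had 8.17 and 5.89 FPKM without Cre, compared to 18.87, 10.09 and 4.84 FPKM with it. The knockouts held both the highest and the lowest value, a ratio of 3.90. The log2 fold change of 0.45 (SE 0.47, limma adjusted p = 0.838) was 0.018 without knockout 1 and 0.90 without knockout 3. Lymphocytes express Ly6a too. Their 6 markers, all below 1 FPKM on average and none at 0 throughout, gave a sum of 1.08 and 1.02 FPKM for the controls. The knockouts had sums of 2.56, 2.33 and 1.56 FPKM. By gene, Cd3e, Cd3d and Cd79a were highest in knockout 1, Cd79b and Cd8a in knockout 2 and Ms4a1 in control 2. Their part in the Ly6a values was not tested. Ly6c1 had 0.27 and 0.98 FPKM across the control pair, against 1.50, 0.20 and 0.41 FPKM across knockouts 1 to 3. It shares 10.1% of its 100-base windows with other genes, mainly Ly6c2, and the ratio from lowest to highest liver was 7.50.

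Pdpn, which encodes podoplanin, was found in 3 of the 5 livers. It had 0.18 and 0.17 FPKM in controls, 0 FPKM in knockouts 1 and 2 and 0.56 FPKM in knockout 3. The knockouts lay on both sides of the controls. Podoplanin marks lymphatic endothelium and also the mesothelium that covers the liver. All 6 mesothelial markers were likewise lower in knockouts 1 and 2 than in knockout 3, and their sum gave control levels of 3.56 and 2.47 FPKM with knockout levels of 0.95, 1.31 and 4.49 FPKM. Msln, for instance, had 1.48 and 0.53 FPKM without Cre, compared to 0.09, 0.09 and 1.34 FPKM with it, and Muc16 was at 0 in knockout 1 and Upk1b in knockout 2. Msln, Muc16 and Upk1b were chosen after their values were seen. The part of mesothelium in the Pdpn values was not tested.

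**Figure D3:**
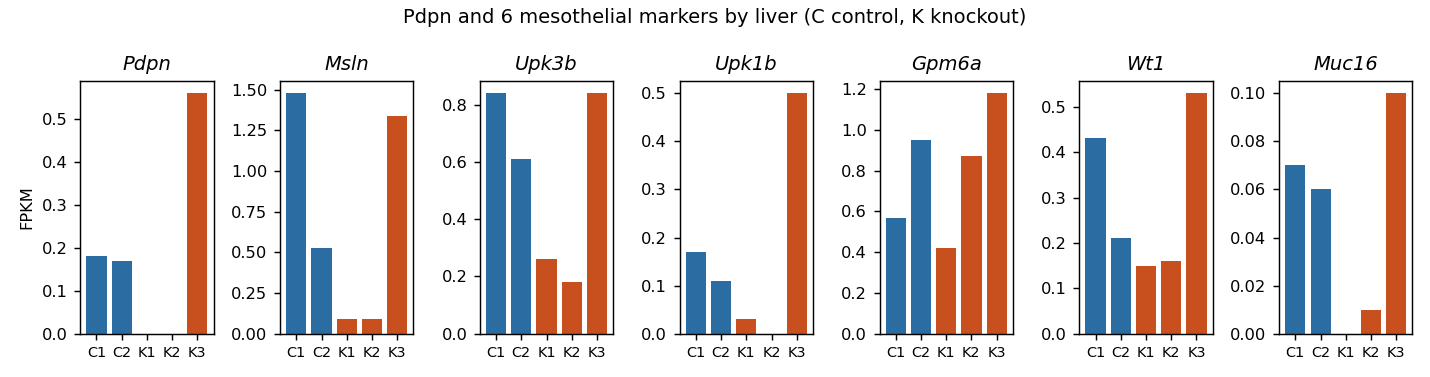
Pdpn and the 6 mesothelial markers in FPKM by liver, with C1 and C2 for controls (blue) and K1 to K3 for knockouts (orange); bars start at 0 and each panel has its own scale. Knockouts 1 and 2 have no Pdpn bar and lower mesothelial bars than knockout 3.

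By class, the 11 tested capillarization members had a median log2 fold change of 0.083, the 8 pan-endothelial members of 0.090 and the 6 lymphatic members of 0.11, beside 0.061 over all genes tested. Fold changes were above 0 for 8 of 11, 8 of 8 and 4 of 6 members, but Eng, Kdr, Cldn5 and Nos3 of the pan-endothelial class were below 0 after median-of-ratios scaling. For comparison, the 10 sinusoidal markers were split evenly, 5 above and 5 below 0, with a median of 4.1e-04, and 0 passed. Within that list Gata4, a transcription factor of sinusoidal identity, had 4.41 and 5.94 FPKM across the control pair, against 6.90, 5.99 and 7.47 FPKM across knockouts 1 to 3 (limma adjusted p = 0.716), and Stab2, the hyaluronan scavenger receptor, 12.61 and 12.05 FPKM and 13.81, 14.24 and 12.30 FPKM.

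The level of each class in a liver was taken as the median over its tested members of log2(FPKM + 1) minus the mean of the gene over the 5 livers. Capillarization members lay at -0.17 and -0.15 for the control pair against 0.13, 0.070 and 0.16 for knockouts 1 to 3, without overlap. All genes tested were also without overlap, in a narrower range, with -0.052 and -0.019 for the controls and 0.020, 0.012 and 0.037 for the knockouts. Pan-endothelial members had 0.065 and -0.12 for controls, next to 0.15, -0.12 and 0.079 for knockouts, with control 2 and knockout 2 low. Lymphatic members ran from -0.14 in control 1 to 0.17 in knockout 1, with control 2 above knockouts 2 and 3. These levels are descriptions of the values as deposited, without a test. The gap between class medians is not the median fold change, which was 0.083 for the capillarization members. Groups did not overlap for 3 of those 11 members (27.3%), beside 25.3% of all genes tested. The median fold change of the capillarization members was 0.024 after median-of-ratios scaling and 0.25 without control 2.

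**Figure D4:**
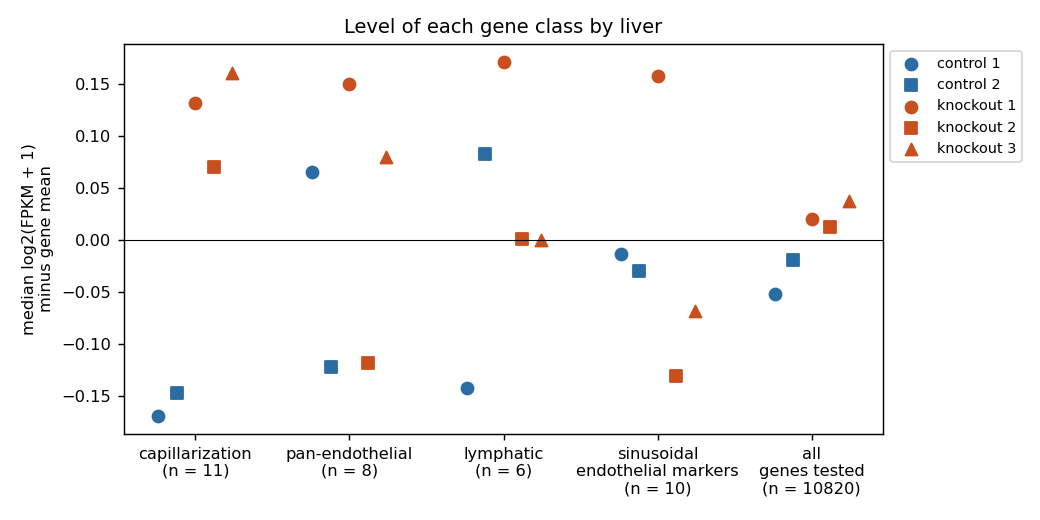
Level of each gene class by liver, as the median over genes of log2(FPKM + 1) minus the gene mean; n is the number of genes, blue points are controls and orange points knockouts. Knockout 1 is the highest liver for pan-endothelial, lymphatic and sinusoidal genes, and the genotypes do not overlap for the capillarization class and for all genes tested.

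Knockout 1 held the highest value for 15 of the 25 tested members (60.0%), where it did so for 23.2% of all genes tested. By class these were 7 of 8 pan-endothelial, 5 of 11 capillarization and 3 of 6 lymphatic members, and 7 of 10 sinusoidal markers did the same. The pan-endothelial count includes Pecam1, for which knockouts 1 and 2 tied at 9.23 FPKM. The capillarization class as a whole was highest in knockout 3, and knockout 1 was lowest for Plvap, for Lamb1 and, among the sinusoidal markers, for Lyve1 (3.90 FPKM, against 7.32 to 10.49 FPKM in the other livers), which was named after its values were seen. This liver also carried the high red cell transcripts, whose part in the endothelial values was not tested. Control 1 was lowest for 9 of the 25 members and knockout 2 for 8, beside 28.4% and 20.2% of all genes tested.

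Of 62 further genes that act with the members, 41 were tested and 0 passed (limma, smallest adjusted p 0.675). At an unadjusted p below 0.05 there were 5 higher and 0 lower, beside 5.29% higher and 1.71% lower of all genes tested. With median-of-ratios scaling or quantile normalization there were 3 higher and 1 lower. Groups did not overlap for 13 (31.7%), beside 25.3% of all genes tested. The list of VEGF, angiopoietin and BMP9 partners held 5 of these 13 among its 11 tested genes (45.5%). All 5 were higher in every knockout, as were 18.9% of all genes tested. They were Id3, Smad7, Id1 and Smad6, which respond to BMP signals, and Vegfa, the ligand of KDR. Of the 11 genes, 8 had fold changes above 0 and 3 below. Vegfb had the lowest (log2 fold change -0.41, limma adjusted p = 0.718), with 6.59 and 7.85 FPKM in controls. Its knockout levels were 4.03, 4.96 and 6.75 FPKM. All are values of bulk liver, and which cells they come from was not tested. Id3 had control levels of 10.72 and 14.94 FPKM with knockout levels of 22.00, 19.18 and 20.94 FPKM, the smallest p of the list (log2 fold change 0.67, SE 0.15, unadjusted p = 0.0042, limma adjusted p = 0.675). Smad7, an inhibitor of TGFβ and BMP signals, had 1.35 and 1.09 FPKM without Cre, compared to 1.96, 3.62 and 2.52 FPKM with it (log2 fold change 0.71, limma adjusted p = 0.700). Id1 had 4.72 and 4.65 FPKM across the control pair, against 5.42, 6.77 and 5.94 FPKM across knockouts 1 to 3. Vegfa had control levels of 69.03 and 71.51 FPKM with knockout levels of 82.49, 81.84 and 96.23 FPKM (log2 fold change 0.30, limma adjusted p = 0.700). Vegfa, which hepatocytes also express, was above the level of every member in every liver. The groups overlapped for the BMP9 ligand and its receptor. Gdf2, which encodes the ligand BMP9, had 6.94 and 8.04 FPKM without Cre, compared to 5.11, 6.83 and 6.97 FPKM with it, and Acvrl1, its receptor ALK1, 1.0 and 2.05 FPKM and 1.72, 1.82 and 1.46 FPKM. Gdf2, Acvrl1, Smad6 and Vegfb were named after their values were seen.

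**Figure D5:**
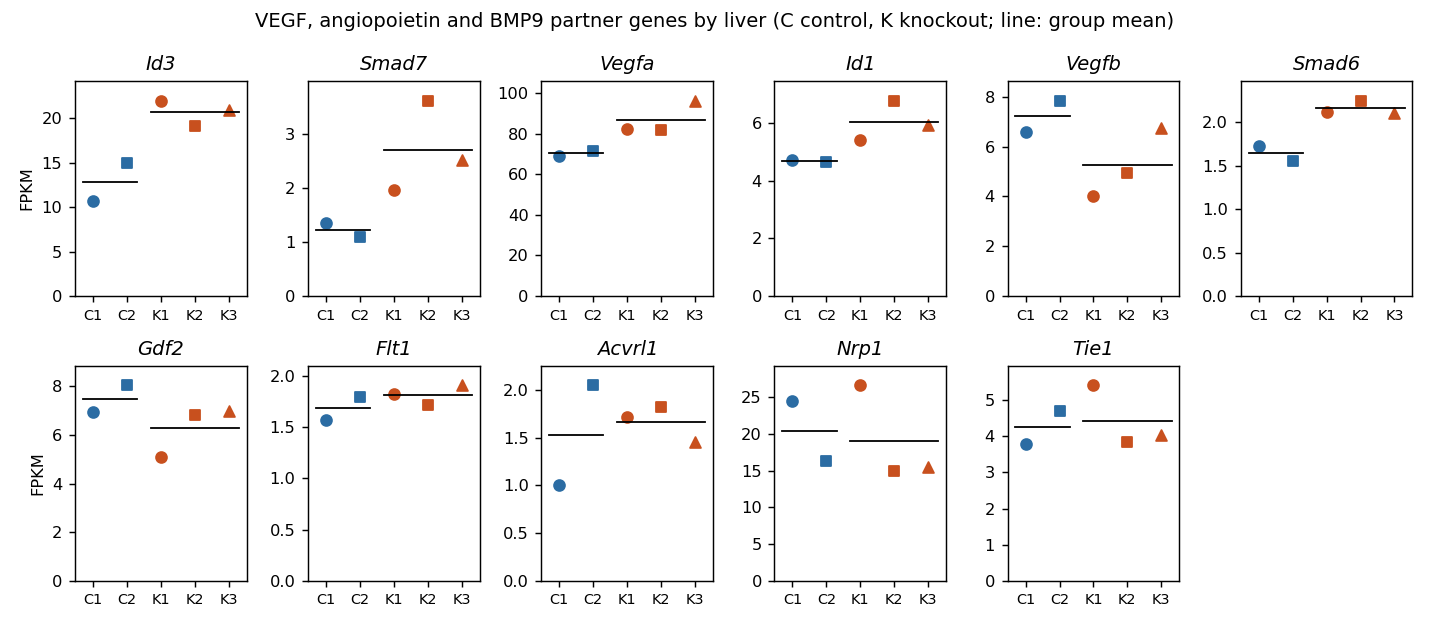
FPKM of the 11 tested VEGF, angiopoietin and BMP9 partner genes by liver, ordered by p, with C1 and C2 for controls (blue), K1 to K3 for knockouts (orange) and a line at each group mean; each axis starts at 0. Id3, Smad7, Vegfa, Id1 and Smad6 are higher in all 3 knockouts than in both controls, and 0 of the 11 passed the adjustment over all genes.

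The other lists gave no call either. Among endothelial transcription factors and Notch genes 8 of 16 were tested, 4 with fold changes above and 4 below 0. Nr2f2, which specifies veins and lymphatics, had 12.88 and 11.19 FPKM across the control pair, against 14.53, 14.12 and 16.91 FPKM across knockouts 1 to 3 (log2 fold change 0.31, limma adjusted p = 0.700). Notch4, an endothelial Notch receptor, had control levels of 1.87 and 1.22 FPKM with knockout levels of 1.02, 1.01 and 0.94 FPKM, the only gene of the 41 that was lower in every knockout (log2 fold change -0.34, limma adjusted p = 0.718). Of 12 other endothelial surface genes 11 were tested, with a median log2 fold change of 0.050, and Ecscr had 2.11 and 2.02 FPKM without Cre, compared to 3.90, 3.17 and 2.75 FPKM with it (log2 fold change 0.47, limma adjusted p = 0.700). Apela, the other ligand of the apelin receptor, was listed at 0 in every liver, and Ednrb, an endothelin receptor, had 1.90 and 2.02 FPKM across the control pair, against 1.98, 2.17 and 2.59 FPKM across knockouts 1 to 3. Ece1, of the same list, had control levels of 126.63 and 93.50 FPKM with knockout levels of 104.54, 460.38 and 164.09 FPKM. Knockout 2 was far above the rest and the groups overlapped (log2 fold change 0.87, limma adjusted p = 0.775).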

How the data were processed

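RNA of 5 livers was sequenced in paired-end libraries, per the labels' protocols. The values the authors deposited are FPKM, with 2 decimals, listed by gene symbol. HISAT2, StringTie and DESeq2 were used with the mm10 build, per the submitters' processing notes; their roles, versions and any use of strand are not given in the sources used here. Both deposited tables held 33589 identical rows, with 0 columns of other samples. FPKM carry no depth, so counting errors are unknown; FPKM sums were 797692 to 820498 per library.

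Groups came from the labels. limma 3.58.1 (R 4.3.3) with a trended prior variance was fitted to log2(FPKM + 1) of 10820 genes with a mean of at least 1 FPKM, and of 14401 genes with at least 0.1 FPKM for lower members, genotype being the only term. Tests were two-sided. The fit was tested on simulated data. Alternatives were the pseudocount, filters, scaling, library weights, a replicate block and leaving out each library. Members, gene lists and the naming rule (every member, up to 4 genes with the smallest p per list) were chosen with earlier results of these data known. Gene positions are from GENCODE M21 (GRCm38). Members below 0.1 FPKM (4) were given by values only.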

Additional observations from a re-analysis of the deposited data

How the results depend on the processing

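No member passed the test in any of the 13 alternatives, with a lowest adjusted p of 0.27 (limma, replicate block). The replicate block takes libraries with the same number as pairs, and knockout 3, alone with its number, adds nothing to its genotype estimate. Its fold changes therefore equal those without knockout 3 (Ly6a, 0.90 in both), so these are not independent alternatives. Of 32 members fitted, 14 kept their direction throughout, Cav1, Itga9, Sox18, Vegfc and Cd34 among them, and 18 turned in at least 1 alternative; the cause was not tested. Over all genes 5 passed with the replicate block and 0 to 1 when each library was left out. Deviations from the group mean correlated at 0.227 between control 1 and knockout 1 over 10820 genes. Between control 2 and knockout 2 it was 0.196. With 2 controls the deviations of one are the mirror of the other, so these are not 2 separate observations. Whether the replicate numbers pair mice cannot be read from them. Members whose groups did not overlap numbered 2 of 10 at a filter of 5 FPKM (25.3% of all genes), 10 of 36 without a filter (21%), and 7 to 12 of 25 with a library left out (37.2% to 52.7%), which has fewer samples to overlap. The median log2 fold change of all members was 0.064 to 0.20 with a library left out. For capillarization it was 0.27 at a filter of 5 FPKM, 0.024 with median-of-ratios scaling, 0.034 with quantile normalization and 0.064 to 0.25 with a library left out. For pan-endothelial members it was -0.046 to 0.19 with a library left out. For lymphatic members it was -0.046 at a filter of 5 FPKM, -0.046 to 0.21 with a library left out, and 0.25 without Prox1 and Reln, an alternative chosen after seeing the data. Among all genes the calls at an unadjusted p below 0.05 were 572 higher and 185 lower as deposited, 273 and 392 with median-of-ratios scaling, and 279 and 321 with quantile normalization.

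Log2 fold changes of members that turned were, with median-of-ratios scaling, -0.0092 for Eng, -0.059 for Kdr, -0.054 for Cldn5, -0.035 for Lamb1, -0.013 for Nos3 and -0.011 for Thbd. With quantile normalization they were -0.067 for Kdr, -0.088 for Cldn5, -0.033 for Nrp2, -0.069 for Lamb1, -0.043 for Nos3, -0.036 for Thbd and -0.017 for Ly6c1. The replicate block gave -0.070 for Lamb1 and -0.0059 for Nos3. A pseudocount of 0.1 gave 0.043 for Esm1 and -0.015 for Ly6c1, and library weights 0.0054 for Edn1 and 0.0060 for Pdpn. With each library left out in turn the ranges were -0.035 to 0.26 for Plvap, -0.0041 to 0.14 for Eng, -0.068 to 0.41 for Prox1, -0.047 to 0.46 for Cdh5, -0.14 to 0.17 for Kdr, -0.11 to 0.014 for Flt4, -0.19 to 0.20 for Cldn5, -0.099 to 0.33 for Tek, -0.36 to 0.25 for Emcn, -0.10 to 0.21 for Nrp2, -0.070 to 0.13 for Lamb1 and -0.30 to 0.11 for Cav2. They were -0.61 to 0.56 for Esm1, -0.088 to 0.14 for Nos3, -0.094 to 0.12 for Thbd, -0.29 to 0.35 for Ly6c1, -0.099 to 0.094 for Edn1 and -0.23 to 0.088 for Pdpn. Without 1 control, the lone control is assumed to vary like the knockouts. Depth is unknown, and FPKM with 2 decimals are coarse for members near 0.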
